A study of Sus scrofa with 2 samples.

Results

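The first megabase (Mb) of chromosome 6 was described in DNA of the longissimus dorsi, a long muscle of the back, from 2 female Tibetan pigs. The stretch was chosen by its mean CpG methylation, which was higher in the low-altitude pig, against the direction of most of the genome. Its members are the cytosines at positions 1 to 1000000 that both libraries list, 5734 of 7002043 nuclear cytosines listed in both. The high-altitude pig lived free-ranging in the Tibetan highland, whose average altitude is given as 4000 m. The low-altitude pig was held under experimental conditions and fed normally on the plain of Chengdu, at 500 m on average, and its ancestors had been moved to the lowland generations earlier. Each group is 1 pig and 1 whole-genome bisulfite library, so altitude, feeding, keeping, descent, individual and library cannot be told apart. No difference below has a replicate error, and differences in level are given as descriptions without a test because the stretch was chosen for them.

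In mammals, DNA methyltransferases add a methyl group to cytosine where guanine follows (CpG), and the mark is copied to the new strand after replication. Most CpGs of a somatic genome are highly methylated. CpG-rich promoters are usually free of the mark, and repeated sequences are often heavily marked. Bisulfite leaves methylated cytosine unchanged and turns unmethylated cytosine into a base read as thymine, so the share of cytosine reads is the methylation level. Levels here are methylated reads over all reads at a cytosine, averaged over cytosines as the mean site level, and a positive difference, in percentage points, means that the low-altitude pig had the higher level. The files list cytosines already called methylated with at least 5 reads, so CpGs without methylated calls are absent from all values.

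The mean level of the members was intermediate in both pigs, and higher in the low-altitude pig. The mean site level was 48.3% at high and 54.5% at low altitude, which is 6.14 points higher, with an SD of the single differences of 15.9 points. At the 4982 shared cytosines of the next 4 Mb, up to position 5000000, the levels were 76.8% and 75.9%, a difference of −0.85 points (SD 22.0). Over reads, 43.9% of 506025 reads were methylated at high altitude (95% Wilson interval 43.8 to 44.0) and 51.2% of 732030 reads at low altitude (51.1 to 51.3). These intervals take reads as independent and cover counting error only. Of the members, 67.2% were higher and 29.4% lower in the low-altitude pig, against 41.7% and 44.9% of the cytosines in the next 4 Mb.

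The members were unevenly placed and deep. Of the 100 windows of 10 kb, 21 held no member. The 2 fullest windows, from 860001 to 880000, held 2554 members, or 44.5%. The median depth of the members was 37 reads at high and 59 at low altitude, while it was 7 in both libraries over the next 4 Mb and 9 in both over all shared nuclear cytosines. Members with at least 61 reads made up 37.1% at high and 49.2% at low altitude. In the next 4 Mb no shared cytosine was deeper than 30 reads at high or 34 at low altitude. How many genomic copies stand behind a deep position was not measured.

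In windows of 10 kb the higher level lay in 3 windows near the end of the stretch. From 950001 to 960000 the level was 27.3% at high and 40.8% at low altitude over 603 members, a difference of 13.5 points. From 870001 to 880000 it was 36.2% and 48.1% over 1352 members, a difference of 12.0 points. From 860001 to 870000 it was 43.5% and 53.5% over 1202 members, a difference of 10.05 points. These 3 windows held 55.1% of the members and gave 6.35 of the 6.14 points of the mean difference, so that all other windows together were slightly below 0. The fourth largest rise among windows with at least 30 members, from 890001 to 900000, rested on 31 members with a median of 7 reads, at 70.3% and 75.5% (SD of the difference 24.9 points). The window from 670001 to 680000, named after its values were seen, also differed by 13.5 points, at 76.9% and 90.3%, but held 15 members.

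Of all 56 windows of 10 kb with at least 10 members, these 3 included, 29 were higher and 27 lower in the low-altitude pig, which is 51.8% higher against 40.2% of such windows in the genome. With levels taken over summed reads, 22 of the 56 were higher. Among 179 windows of the next 4 Mb, 87 were higher and 92 lower. The 3 largest falls among windows with at least 30 members were small. From 190001 to 200000 the levels were 79.8% and 75.5%, from 620001 to 630000 they were 77.0% and 73.1%, and from 150001 to 160000 they were 66.0% and 62.1%. All 3 of these windows had median depths of 6 to 9 reads. Over reads only the first of them was not lower, at 74.0% and 74.5%. The largest fall of any of the 56 windows, named after its values were seen, was from 280001 to 290000. There the levels were 84.0% and 72.8% over 12 members, at a median of 6 reads in both libraries. The plot of 10 kb windows shows the scatter of these shallow windows in the middle of the stretch beside the 3 windows near its end.

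**Figure D1:**
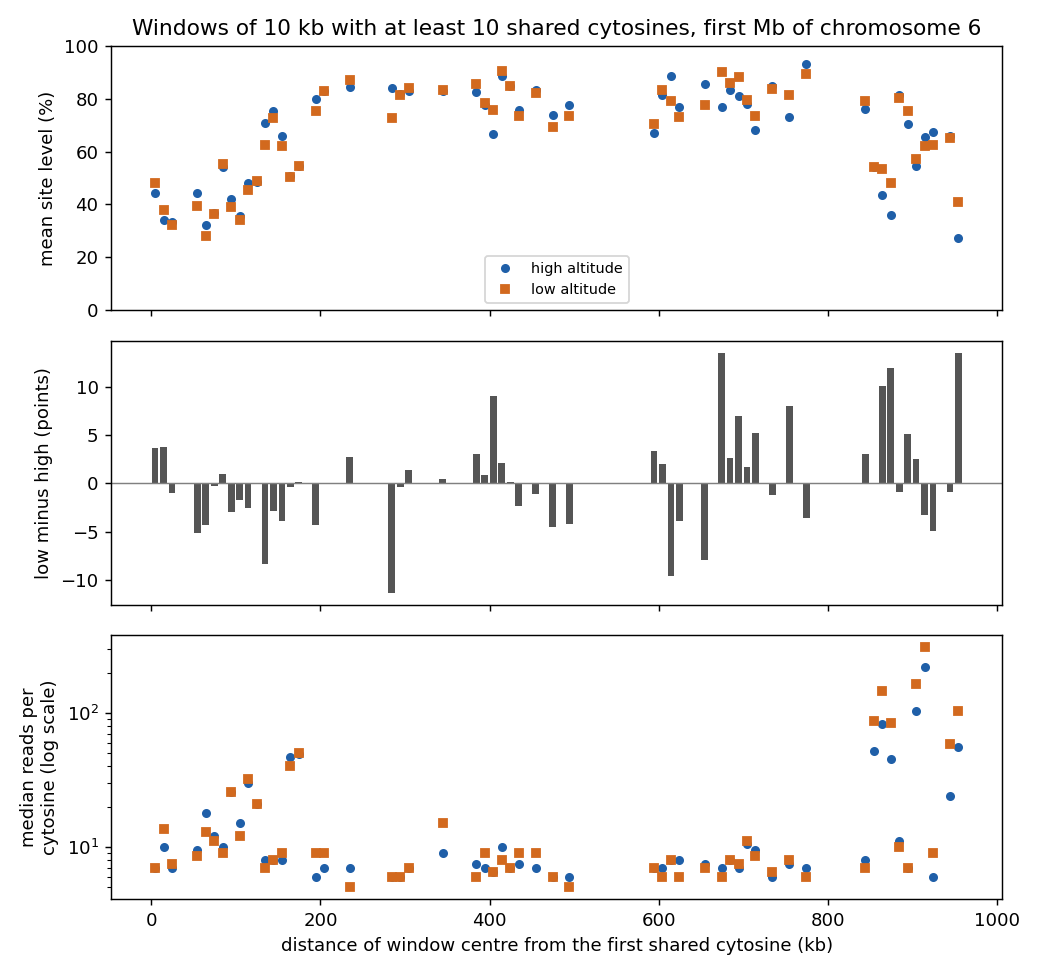
Mean site level (top), difference (middle) and median reads per cytosine on a log scale (bottom) for the 56 windows of 10 kb with at least 10 shared cytosines, by distance from the first shared cytosine in kb, with high altitude as circles and low altitude as squares. The 3 windows with both many members and large differences lie near the right end, at 10.05, 12.0 and 13.5 points.

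At 1 kb the difference was sharply placed. Windows with at least 100 shared cytosines, called dense here, numbered 14 in the stretch and fell into 2 runs. The threshold was chosen after the values were seen. It uses the number of cytosines listed in both files and not their level. Only cytosines called methylated are listed, so the number is not independent of methylation and depth. The longer run covered 11 kb, from 865001 to 876000, with 1240 CpGs, and the shorter run 3 kb, from 954001 to 957000, with 225 CpGs. Together they held 2782 members, 48.5% of all.

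All 14 dense windows were higher in the low-altitude pig. Their mean site level was 35.8% at high and 48.2% at low altitude, a difference of 12.4 points (SD 10.2 over cytosines). The single windows differed by 6.69 to 18.0 points, with levels of 22.8 to 50.3% at high and 35.2 to 56.9% at low altitude. Of the cytosines in them, 90.4% were higher and 9.24% lower in the low-altitude pig. The dense windows gave 6.02 of the 6.14 points of the mean difference of the whole stretch, and the other 2952 members had 60.1% and 60.4%, a difference of 0.24 points. Weighted by windows of 1 kb instead of by cytosines, the stretch differed by 0.10 points, since the 14 dense windows are few among the 339 windows with a member.

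The shorter run was the less methylated of the 2 in both pigs. The longer run had 38.1% at high and 49.98% at low altitude, a difference of 11.9 points, and the shorter run 23.4% and 38.7%, a difference of 15.2 points. The smallest difference of a dense window was in the first one of the longer run, from 865001 to 866000, where the levels were 50.3% and 56.9%. The other 10 windows of that run differed by 10.04 to 13.97 points. In the shorter run, the window from 954001 to 955000 had 22.8% and 37.8%, and the next one, from 955001 to 956000, had 23.6% and 41.5%, the largest difference of a dense window.

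Inside the runs, all 133 pieces of 100 bp with at least 5 shared cytosines were higher in the low-altitude pig, by 1.48 to 25.6 points with a median of 12.5. Pieces with fewer cytosines were not all higher. In the shorter run, the piece 200 bp from its start, with 2 cytosines, had 11.2% at high and 10.7% at low altitude, and the piece 400 bp from its start, with 3 cytosines, had 17.9% and 12.97%. The level varied along the longer run in like manner in both pigs, with a Pearson correlation of 0.86 across 107 pieces, and less so along the shorter run, at 0.427 across 26 pieces. Depth followed a shared pattern too, with a correlation of the log2 median depth of 0.99 in the longer and 0.917 in the shorter run. Neighbouring pieces share reads, so these correlations describe the profile and have no p-value. The difference and the log2 ratio of depths, low over high altitude, had a correlation of −0.223 along the longer and 0.268 along the shorter run.

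**Figure D2:**
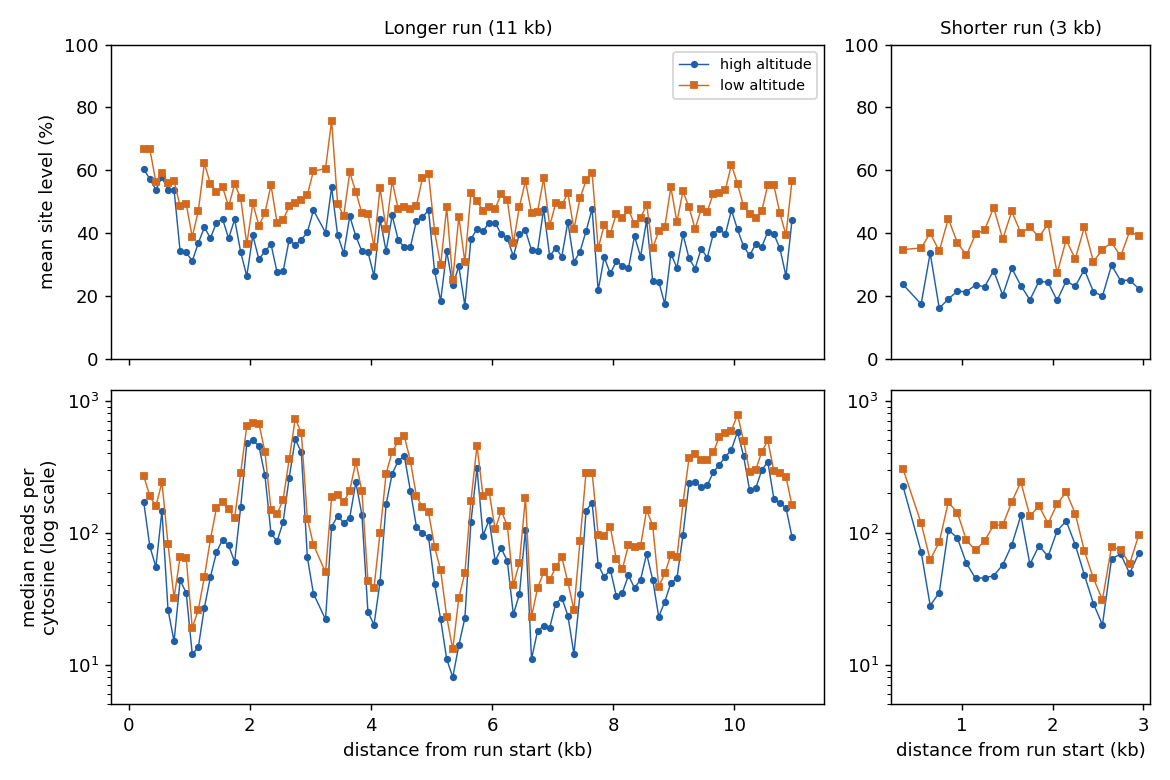
Mean site level (top) and median reads per cytosine on a log scale (bottom) in pieces of 100 bp with at least 5 shared cytosines, by distance from the start of the longer run (left) and the shorter run (right), with high altitude as circles and low altitude as squares. The low-altitude level lies above the high-altitude level in all 133 pieces, and the peaks of depth lie at like places in both libraries.

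The dense windows also held more reads in the low-altitude library. The library totals over listed nuclear cytosines were 99955761 reads at high and 95363149 at low altitude. The dense windows had 305414 and 490215 reads, a ratio of 1.61, or 1.68 after division by those totals. The ratio of single dense windows ran from 1.43 to 2.09, and it was 1.01 over the next 4 Mb. Methylated reads accounted for most of the excess. They numbered 114624 and 246491, a ratio of 2.15, while unmethylated reads numbered 190790 and 243724, a ratio of 1.28. After division by the totals, the ratios were 2.25 for methylated and 1.34 for unmethylated reads. Such ratios follow from the ratio of all reads and the levels of both pigs. They restate the difference for which the stretch was chosen and are no separate result. In these windows the low-altitude library thus had both more reads and the higher level. The part of depth in the difference was not tested.

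In the genome 27 windows of 1 kb were dense by the same threshold, of which 14 lay in the first Mb of chromosome 6 and 13 on 5 other chromosomes. The 13 others had levels of 57.7 to 85.3% at high altitude, above the 22.8 to 50.3% of the 14. At low altitude they had 50.8 to 83.6%, which overlaps the 35.2 to 56.9% of the 14. Their differences ran from −7.58 to 1.39 points with a median of −1.82, against 6.69 to 18.0 with a median of 12.6 in the 14 windows. Among the 13, 7 had over 1.4 times as many reads in the low-altitude library, up to 2.17 times, and their differences were −2.99 to −0.996 points. The cut of 1.4 lies just under the lowest ratio of the 14 windows, 1.43. These 7 lay on chromosomes 9, 11 and 16. Those on chromosome 9 all lay from 40842001 to 40847000, so neighbouring windows are not separate cases, as in the 2 runs described above. The ranges of the differences of the 2 sets did not overlap, which follows in part from the choice of this stretch by its difference. Of all 4552 dense or deep windows of 1 kb in the genome, where deep means a median of at least 20 reads in both libraries and at least 5 shared cytosines, 5.98% were higher by at least 10 points. In the first Mb of chromosome 6 it was 16 of 55 such windows, 29.1%.

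**Figure D3:**
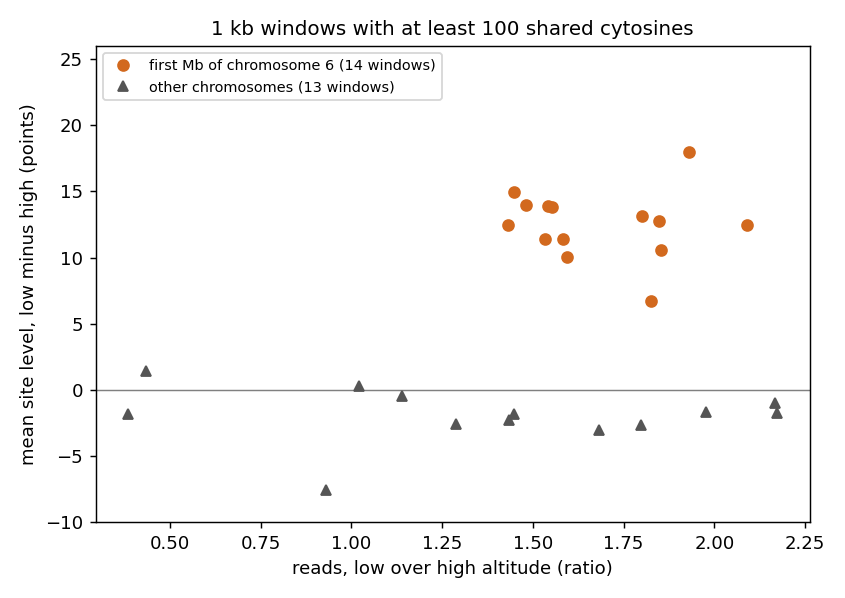
Difference in mean site level (points) against the ratio of reads, low over high altitude, for the 27 windows of 1 kb with at least 100 shared cytosines. The 14 windows of the first Mb of chromosome 6 (circles) lie between 6.69 and 18.0 points, and the 13 windows of other chromosomes (triangles) between −7.58 and 1.39 points. The ratios of reads run from 1.43 to 2.09 in the first set and from 0.385 to 2.17 in the second.

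Deep windows outside the dense runs fell into 2 sets by position. Before position 500000, 24 deep windows, with 890 members, had median depths of 40 and 37 reads and nearly equal reads in both libraries, with a ratio of 0.994. Their levels were 50.8% and 50.1%, a difference of −0.78 points. Of these windows 8 were higher and 16 lower in the low-altitude pig, and none was higher by 5 points or more.

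After position 500000, 17 deep windows, with 614 members, were mixed. They had median depths of 107.5 and 162 reads and a read ratio of 1.35. Their levels were 48.1% and 51.9% as means over sites, a difference of 3.79 points, but 55.05% and 54.6% over reads, a difference of −0.49 points. Of the 17, 7 were higher and 10 lower. Those higher by at least 10 points lay beside the dense runs, and were chosen here after their values were seen. From 957001 to 958000 the levels were 26.4% and 38.0%, and from 958001 to 959000 they were 28.4% and 47.7%, the largest rise of any window of 1 kb with at least 10 members. From 877001 to 878000, close to the end of the longer run, they were 24.6% and 40.1%, although this window had fewer reads at low altitude, 582 against 1025.

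Other very deep windows nearby, also named after their values were seen, went both ways. From 909001 to 910000, at median depths of 105.5 and 165.5 reads, the levels were 40.6% and 50.4%, a difference of 9.82 points. From 858001 to 859000 they were 22.4% and 29.1%, and from 864001 to 865000 they were 41.7% and 45.9%. From 860001 to 861000, at 368 and 457.5 reads, the levels were lower at low altitude, 71.0% and 65.8%. From 910001 to 911000, at 251 and 372 reads, they were 66.6% and 63.8%. From 859001 to 860000, at 260 and 381 reads, they were 46.4% and 45.8%. The last 3 of these windows had 1.28 to 1.34 times as many reads in the low-altitude library. The largest falls among windows with at least 10 members were less deep. From 951001 to 952000, at medians of 18 and 11 reads, the levels were 67.7% and 51.6% over 15 members (SD of the difference 30.7 points). Over reads they were 73.2% and 48.1%. From 920001 to 921000, at 6 and 12 reads, the levels were 58.5% and 45.6% over 14 members.

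Over all windows of 1 kb, higher and lower windows were about as frequent as elsewhere. Of 175 windows with at least 5 members, 80 were higher in the low-altitude pig, 45.7% against 44.8% in the genome. Those higher by at least 5 points numbered 45, or 25.7%, against 23.3% in the genome. Without the dense windows, 66 of 161 were higher and 95 lower. The 284 windows that were neither dense nor deep held 1448 members at 70.9% and 70.3%, a difference of −0.65 points, with 16078 and 15921 reads.

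By the Fisher's exact test over all windows of the genome, with Benjamini-Hochberg adjustment, a threshold of 0.05 and a difference of at least 20 points, 0.494% of 462691 windows were called. In the first Mb of chromosome 6 it was 1 of 168, a window outside the dense runs that was lower in the low-altitude pig, and 0.306% of the windows in the genome were called in that direction. None of the 14 dense windows was called, since their differences over reads, with a median of 13.2 points, stayed under 20. Of single CpGs with at least 10 reads, 0.323% of 2588389 in the genome were called at a difference of at least 25 points. In the stretch 54 of 2636 were called, 51 of them higher in the low-altitude pig (0.146% in the genome), and 43 of the 54 lay in the dense windows. The stretch was chosen on the same contrast, so nothing is read from these counts. These tests compare 2 libraries and not 2 altitudes.

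By depth class, the difference of the dense windows was present in the deepest class. Cytosines entered a class of reads if both of their depths lay in it. With at least 61 reads in both libraries, 1413 cytosines of the dense windows had 37.5% and 50.1%, a difference of 12.6 points (SD 6.97), and 96.3% of them were higher in the low-altitude pig. At 30 to 60 reads the difference was 14.7 points over 93 cytosines, and at 15 to 29 reads 10.1 points over 46. The classes below 15 reads held 34 cytosines in all. The difference was 0.41 points at 10 to 14 reads (16 cytosines), 7.42 points at 7 to 9 reads (13) and 12.7 points at 5 to 6 reads (5). Classed by the mean of both depths instead, it was 7.38 points at 10 to 14 reads (101 cytosines) and 4.90 points at 7 to 9 reads (33). Sites with equal reads in both libraries were rare there, with 37.6% and 44.0% over 16 cytosines (SD of the difference 11.4 points). Sites with more reads at high altitude differed by 12.9 points over 30 cytosines, and those with more reads at low altitude by 12.4 points over 2736.

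In the rest of the stretch the mean differences stayed near 0 in each class. With at least 61 reads in both libraries, 654 cytosines outside the dense windows had 51.4% and 51.5%, a difference of 0.11 points (SD 9.36). From 5 to 60 reads the class means ran from −2.43 to 0.88 points. Over all nuclear cytosines outside the stretch, the class means were −1.14 to −1.01 points from 5 to 60 reads and −2.33 points at 61 or more, over 9169 cytosines. In the next 4 Mb the class means ran from −2.09 to −0.05 points, and no cytosine had 30 reads or more in both libraries. In the whole stretch the class mean was 1.09 points in the shallowest class and 8.64 points in the deepest, where 1413 of 2067 cytosines were in dense windows. Over the 285 members with equal reads in both libraries, of which 16 were in dense windows, the direction was the opposite, with 71.6% and 70.4% (−1.17 points).

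**Figure D4:**
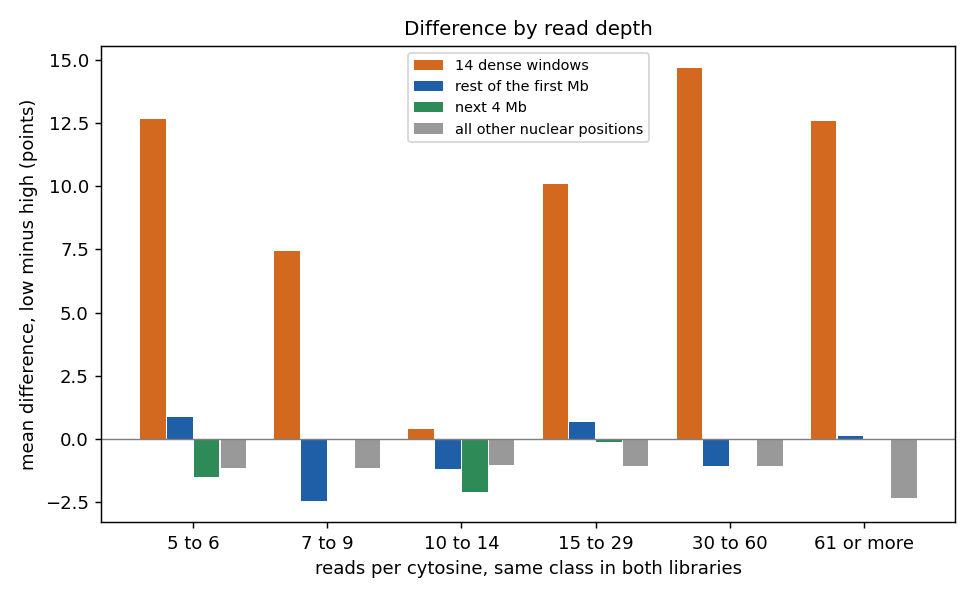
Mean difference in site level, low minus high altitude (points), by class of reads per cytosine for cytosines with both depths in that class, without error bars; bars are missing where a class holds no cytosine. The dense windows stand at 14.7 points at 30 to 60 reads and 12.6 points at 61 or more, while their classes below 15 reads hold 34 cytosines in all, and the other sets lie between −2.43 and 0.88 points.

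Both strands carried the difference. In the dense windows the 1446 cytosines of the plus strand had 35.6% and 48.4%, a difference of 12.8 points (SD 10.03), and the 1336 of the minus strand 36.0% and 47.9%, a difference of 12.0 points (SD 10.4). The CpG is a palindrome, so each CpG offers a cytosine on either strand, read from different molecules. At 1317 CpGs of the dense windows both strands were listed in both libraries. Of these, 82.8% were higher in the low-altitude pig on both strands, 1.37% lower on both and 15.03% opposite. The mean size of the gap between the strands of a library was 7.95 points at high and 7.47 at low altitude, while that between the libraries on the same strand was 13.8 points on the plus and 13.6 on the minus strand.

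Outside the dense windows, neither direction prevailed among CpGs whose strands agreed. At 660 CpGs with all 4 values, 27.0% were higher on both strands, 30.6% lower on both and 39.5% opposite. Their gap between libraries, of 10.3 and 10.5 points, was no larger than that between strands, of 11.3 points at high and 10.8 at low altitude. In the whole stretch the plus strand differed by 7.05 points and the minus strand by 5.28. The dense windows made up a larger share of the plus than of the minus strand, with 1446 of 2783 and 1336 of 2951 cytosines. The plus strand was also ahead within each part. It differed by 12.8 points against 12.0 in the dense windows, and by 0.86 against −0.28 points in the rest. What the strand contrast rests on was not tested.

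By spacing, the difference was largest where listed CpGs lay close together. Spacing was taken to the nearest other CpG listed in either file, and its median was 4 bp in the dense windows, 13 bp in the rest of the stretch and 16 bp in the next 4 Mb. In the whole stretch the difference fell from 8.65 points at under 10 bp (3703 cytosines) through 2.77 at 10 to 24 bp and 0.62 at 25 to 49 bp to −3.06 points at 100 bp or more (119 cytosines). Inside the dense windows it was 12.5 points at under 10 bp (2445 cytosines), 11.8 points at 10 to 24 bp (308 cytosines) and 9.48 points at 25 to 49 bp (23 cytosines). Wider spacing was rare there, with 8.35 points at 50 to 99 bp (4 cytosines) and 9.03 points at 100 bp or more (2 cytosines). In the rest of the stretch, cytosines with a neighbour under 10 bp away differed by 1.13 points (1258 cytosines), and in the next 4 Mb by −0.49 points (1634 cytosines).

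The whole distribution of levels was shifted in the dense windows. Cytosines below 20% made up 14.4% at high and 3.67% at low altitude, and those at 20 to 40% made up 46.0% and 25.2%. Those at 40 to 60% made up 34.4% and 47.7%, and those at 60 to 80% made up 4.89% and 22.5%. Levels of 80% or more were rare in both pigs, at 0.29% and 0.86%, whereas they made up 51.7% and 49.2% in the windows that were neither dense nor deep. Grouped by the mean of both pigs, cytosines at 40 to 60% differed most, by 13.5 points (SD 9.59, 1275 cytosines), and those below 20% by 8.48 points (169 cytosines). In the shorter run, cytosines below 20% made up 37.9% at high and 7.26% at low altitude.

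The restriction to cytosines listed in both files left out few sites of the dense windows and many elsewhere. In the dense windows, 6 of 2788 cytosines listed at high altitude (0.215%, 95% exact interval 0.079 to 0.468) and 77 of 2859 listed at low altitude (2.69%, 2.13 to 3.35) were absent from the other list. In the rest of the stretch it was 32.0% of 4340 (30.6 to 33.4) and 33.1% of 4411 (31.7 to 34.5), with a median of 6 reads at these sites in both libraries. Over the next 4 Mb it was 49.02% of 9773 and 51.1% of 10184. The dense windows are thus the part of the stretch that both lists cover most fully. This follows in part from their definition, which counts cytosines listed in both files.

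At its outer edge the stretch ended in a gap. The last member, at 958957, had 3 of 7 methylated reads at high and 1 of 6 at low altitude. The first shared cytosine beyond 1000000, at 1028383, had 5 of 7 and 4 of 5.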

How the data were processed

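Bisulfite sequencing of muscle DNA of 2 pigs, 1 per group, was used. The submitters' processing notes name Bismark 0.12.5. The build, the read filters and the handling of duplicates are not stated in the sources used here. The authors deposited counts of methylated and unmethylated reads per cytosine, a methylation fraction and 2 p-values, raw and corrected, per the file headers. Every line is a CpG with at least 5 reads and a corrected p-value under 0.05. The median depth was 8 reads in both lists, and no molecular identifiers are described, so copies of a molecule may be counted more than once.

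Levels were computed from the counts in Python 3.11.15 with numpy 2.4.6, scipy 1.17.1 and pandas 2.3.3. Mitochondrial cytosines were left out. Cytosines of the first Mb of chromosome 6 listed in both files were compared with those of the next 4 Mb, in windows of 10 kb (at least 10 cytosines) and 1 kb (at least 5), by depth, strand and spacing. The Fisher's exact tests summed the strands of a CpG, needed 5 CpGs of at least 5 reads in each library per window of 1 kb, or 10 reads per CpG, and were adjusted over the genome. The routine was tested on simulated data. Named windows are the 4 largest rises and the 3 (10 kb) or 2 (1 kb) largest falls among windows of at least 30 (10 kb) or 10 (1 kb) members, and the 2 fullest windows of 10 kb, beside others named as chosen after their values were seen. The stretch and the lists were chosen with earlier results of these data known. On 18 of 19 chromosomes listed positions lie beyond every gene of the supplied table, which belongs to another assembly, so no gene and no sequence is given. Alternatives covered depth, weighting, strand, window size and thresholds.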

Additional observations from a re-analysis of the deposited data

How the results depend on the processing

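No paired analysis was possible because each group holds 1 pig. The mean difference of the stretch, 6.14 points, rested on the dense windows. It was 0.24 points without them (an alternative chosen after seeing the data), −0.57 without the 5 fullest windows of 10 kb, and 0.10 as a mean of 1 kb windows. It was −1.17 at the 285 cytosines with equal reads, of which 16 lay in dense windows, 2.74 at up to 60 reads, 8.005 from 10 reads, 7.31 over reads, 7.75 as a median and 5.09 with strands summed. The difference of the dense windows, 12.4 points, was examined under alternatives chosen after seeing the data. It was 10.7 at up to 60 reads, 6.40 at equal reads, 9.98 in windows of at least 50 shared cytosines, 11.9 in the longer and 15.2 in the shorter run, and 12.0 to 12.9 without any 1 window. Of 29 higher windows of 10 kb there were 9 from 10 reads, 2 at equal reads, 17 at 20 kb and 13 with at least 30 members. Of 80 higher windows of 1 kb there were 38 from 10 reads, 4 at equal reads and 41 with at least 10 members. Fewer windows entered in each case, so these counts do not show whether the share of higher windows changed. Called windows numbered 2 from 10 reads and 0 at 30 points, against 1. The contrast of close and wide spacing, 11.7 points, was 16.0 from 10 reads, 7.87 at up to 60 reads and −0.49 at equal reads, and that of the strands, 1.78 points, was 3.11 at equal reads. The ratio of median depths, 1.59, was 1.45 over all listed cytosines, and the share listed at low altitude only, 21.1%, was 4.38% from 10 reads. Smaller shifts included 22 higher windows of 10 kb over summed reads, a strand contrast of 1.09 points from 10 reads, and 44 to 71 called CpGs against 54. Depth limits the 284 windows that were neither dense nor deep, at a median of 8 reads in both libraries.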

Other observations

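Distances between listed CpGs were counted in an early part of the stretch and in the dense runs. Among the 733 shared CpGs of positions 90000 to 180000, 55 had another listed CpG exactly 49867 bp away, and 52 had one 3232 bp away, the 2 most frequent shifts of at least 20 bp. The pairs at 49867 bp joined positions 117263 to 121514 with 167130 to 171381. Over the 95 cytosines listed on the same strand at both places, the level was 47.5% and 52.6% at high altitude, and 47.4% and 54.2% at low altitude. The levels of the paired cytosines had a correlation of 0.562 at high and 0.508 at low altitude, given as a description because cytosines of 1 library share reads. Correlations at other shifts were not computed. The number of CpGs that would coincide at the most frequent shift among unrelated positions was not counted. Whether the 2 places share a sequence was not tested.

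In the dense runs the most frequent shifts lay close together in number. Within the longer run of 1240 CpGs the most frequent shift of at least 200 bp, 382 bp, joined 172 CpGs, and the next, 251 bp, joined 171. Between the runs, the most frequent shift joined 49 of the 225 CpGs of the shorter run in the same direction and 50 in the mirrored direction, with 46 at the next most frequent shift in both cases. These shifts were searched after the values were seen and without the sequence.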
